A study of Mus musculus with 9 samples.

Results

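Endoplasmic reticulum (ER) stress and chaperone genes are described here through 10 genes, Hspa5, Hsp90b1, Dnajb9, Pdia4, Pdia6, Xbp1, Atf4, Ddit3, Trib3 and Asns, in mouse embryoid bodies. The members were the rows of the deposited count table whose Ensembl ID carries one of these symbols in GENCODE M21, and 10 of 10 were found among 54232 gene IDs. Another ID that carries the symbol Ddit3 held 0 counts over all libraries, and the ID with the larger total was used. All 10 passed the filter on low counts that left 16168 genes for testing. The starting cells were wild-type mouse embryonic stem cells. They were grown into embryoid bodies, floating aggregates in which germ layer derivatives form, and polyadenylated RNA was sequenced. The 9 libraries fall into the groups EBD2, EBD5 and EBD6, with 3 libraries in each. The groups share the wild-type genotype, the labels name no further treatment, and they do not say what the number in a group's name stands for. The labels give neither the line nor the origin of the replicates. If these are not separate cultures, the p-values rest on technical spread alone.

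The ER folds secreted and membrane proteins, and the unfolded protein response is the signalling network that adjusts its capacity. Of its sensors, IRE1 splices the Xbp1 message, ATF6 is cut to release a transcription factor, and PERK phosphorylates the initiation factor eIF2 alpha, which favours translation of Atf4. ATF4 and its target CHOP, the product of Ddit3, act on amino acid supply and, under lasting stress, on cell death. Counts per gene show neither the splicing of Xbp1 nor the translation of Atf4, so the values below are levels of total message. In early embryos the visceral and parietal endoderm are tissues of heavy secretion.

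Libraries held 5454268 to 11704761 counts. EBD2 replicates 1 and 2, and EBD6 replicates 2 and 3, showed no difference larger than sampling noise by a chi-square test over genes. Each such pair entered the tests as 1 summed sample, so n was 2 in EBD2, 3 in EBD5 and 2 in EBD6. EBD5 libraries stood apart by RNA class. Nuclear ribosomal RNA took 0.726% to 0.812% of EBD5 counts, against 0.0165% to 0.0207% in EBD2 and 0.0192% to 0.0247% in EBD6, and processed pseudogenes took 0.986% to 0.997%, against 0.200% to 0.280% and 0.150% to 0.166%. Fold changes also moved with the GC content and length of genes, so the median fold change of genes in the same GC and length bin is given where it bears on a member. Levels are in CPM, counts over the TMM-scaled library size, the usual depth-scaled unit. Markers of visceral and parietal endoderm were 18 genes in all. They summed to 541 to 547 CPM in EBD2, 5293 to 5376 CPM in EBD5 and 3265 to 3433 CPM in EBD6. By edgeR's test 18 of the 18 were higher in EBD5 than in EBD2, beside 34.9% of all tested genes. In EBD6 over EBD5, 7 were higher and 9 lower, beside 36.9% and 33.3%. The 8 pluripotency markers summed to 1672 to 1875 CPM in EBD2, 1207 to 1323 CPM in EBD5 and 1080 to 1235 CPM in EBD6. Their calls were mixed. In EBD5 over EBD2, 2 of the 8 were higher and 3 lower, beside 34.9% and 35.1% of all tested genes. In EBD6 over EBD5 2 were higher and 4 lower, and in EBD6 over EBD2 1 was higher and 4 lower, beside 33.7% and 32.3% in the last. None of the 8 was at 0. Mesoderm markers summed to 17.7 to 21.5, 85.1 to 87.3 and 293.7 to 326.4 CPM in EBD2, EBD5 and EBD6. Trophoblast markers summed to 42.8 to 44.1, 59.97 to 66.65 and 169.5 to 173.6 CPM in that order. Fibroblast sums were highest in EBD6 (42.1 to 52.4 CPM), and neuroectoderm sums were lowest there (351.6 to 359.3 CPM). In EBD6 over EBD5, 7 of 9 mesoderm, 7 of 7 trophoblast and 6 of 8 neuroectoderm markers were higher, and 0, 0 and 2 lower. Of 5 fibroblast markers tested there, 3 were higher and 2 lower. The part of these differences in the members' results was not tested, and in bulk RNA fewer cells of a type and less RNA per cell cannot be told apart.

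Promoter sequences show which members carry the short elements that the response is known to act through. RefSeq promoters of build GRCm38.p6, from 250 bases before to 50 bases after the annotated start, were matched for 10 of 10 members and searched on both strands. The ER stress response element, bound by ATF6 with the factor NF-Y, was searched as CCAAT, any 9 bases, CCACG. It was present in 3 of 10 members, Hsp90b1, Hspa5 and Pdia6, and in 0.119% of 32851 promoters (39). The C/EBP-ATF response element, bound by ATF4 with C/EBP partners such as CHOP, was searched as TGATG, any base, AA. It was present in 2 of 10 members, Asns and Trib3, and in 3.97% of promoters (1304). The second form of the ER stress response element (ATTGG, any base, CCACG, in 0.0365% of promoters) and the core of the unfolded protein response element (TGACG directly followed by TGG, in 0.676%) were found in 0 of 10. The motifs were chosen as those known for this pathway, and a match describes letters in a window and no binding.

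The stretches that hold the matches are shown 5′ to 3′ on the gene's strand, with matches in capitals. The Hsp90b1 stretch, chr10:86705524-86705664 on the minus strand, holds 2 matches in opposite orientations. The Pdia6 stretch is chr12:17266459-17266529 on the plus strand, and the Hspa5 stretch is chr2:34772020-34772049 on the plus strand. The Asns stretch, chr6:7693214-7693243, and the Trib3 stretch, chr2:152344029-152344058, lie on the minus strand, and the Trib3 match lies after the RefSeq start in reverse orientation. In the basic set of GENCODE M21 the matches of Hsp90b1, Pdia6 and Trib3 lie upstream of every annotated start, and those of Hspa5 and Asns lie downstream of at least 1.
Hsp90b1: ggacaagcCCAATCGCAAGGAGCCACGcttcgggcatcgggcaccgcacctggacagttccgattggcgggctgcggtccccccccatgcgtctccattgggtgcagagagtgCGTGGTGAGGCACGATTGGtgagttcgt
Pdia6: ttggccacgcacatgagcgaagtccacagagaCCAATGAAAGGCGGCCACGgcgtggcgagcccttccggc
Hspa5: cttcaCCAATCGGAGGCCTCCACGacgggg
Asns: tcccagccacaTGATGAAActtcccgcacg
Trib3: attagctcaggtTTACATCAgccgggcggg
Of the 3 members with the ER stress response element, Hsp90b1 fell in EBD6, and Hspa5 and Pdia6 passed the test in no comparison. Whether these members differ from each other was not tested.

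Per length of exon, the chaperones Hsp90b1 and Hspa5 were the most abundant members and Ddit3 and Trib3 the least, as the plot of levels per exon length shows. Hsp90b1 ranged over libraries from 178 to 219 CPM per kb in EBD2, 221 to 228 in EBD5 and 106 to 137 in EBD6, and stood first in each group with no overlap with the next gene. Hspa5 came next with 97.1 ± 12.2, 106 ± 4.26 and 93.2 ± 12.5 CPM per kb (SD, n = 2, 3 and 2). In EBD6 its libraries overlapped those of Asns, the next in order. Atf4, Asns, Pdia6 and Pdia4 followed at 59.9 to 87.9 CPM per kb on average and exchanged places between groups. Their neighbours in that order overlapped, except Atf4 with Asns in EBD5 and Pdia4 with Pdia6 in EBD6. Xbp1 at 21.2 to 24.7 and Dnajb9 at 15.5 to 20.3 CPM per kb came below them, and their libraries overlapped in EBD5. Ddit3 and Trib3 were lowest: Ddit3 had 6.90, 6.38 and 9.88 CPM per kb in EBD2, EBD5 and EBD6, and Trib3 had 5.87, 3.37 and 10.9. Trib3 was below Ddit3 without overlap in EBD5, and the pair overlapped in EBD2 and EBD6.

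**Figure D1:**
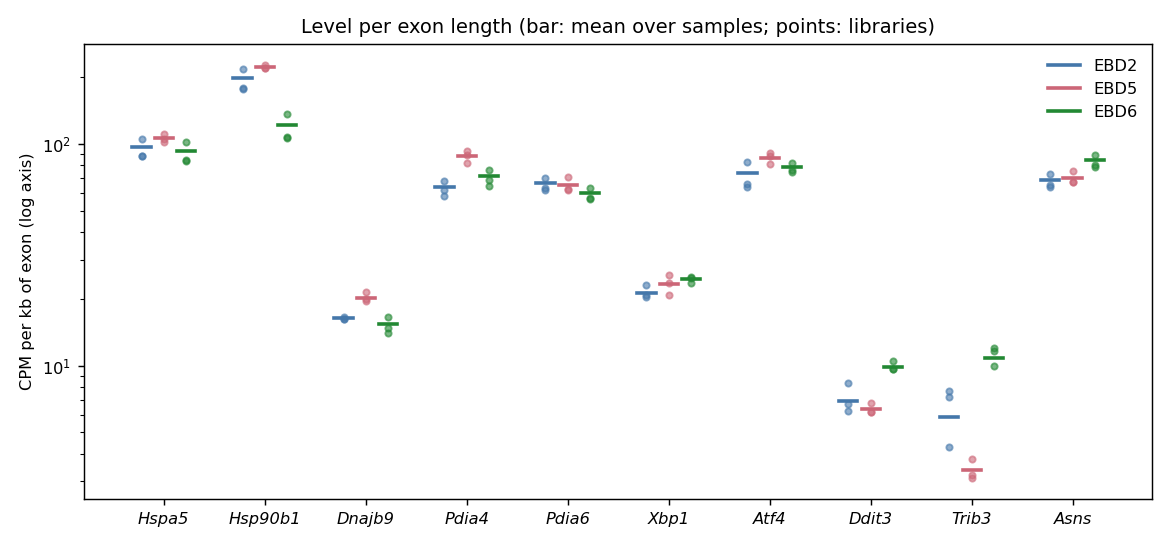
Level of each member per kb of exon on a log axis, with points for libraries and bars for the mean over samples of EBD2, EBD5 and EBD6. Hsp90b1 is highest in each group and Ddit3 and Trib3 are lowest, and Trib3 averages 3.37 CPM per kb in EBD5 and 10.9 in EBD6.

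The folding chaperones come first. Hspa5 (ENSMUSG00000026864, chr2:34771970-34777547 on mm10) encodes BiP, the ER's main Hsp70 chaperone, which also holds the stress sensors inactive. It had 375, 373 and 447 CPM in EBD2 replicates 1 to 3, 448, 433 and 469 CPM in EBD5, and 432, 360 and 354 CPM in EBD6. EBD2 replicate 3 lay among the EBD5 libraries, and EBD6 replicate 1 lay just below the lowest of them. Hspa5 passed the test in no comparison by edgeR's quasi-likelihood test with Benjamini-Hochberg adjustment over all tested genes. Its log2 fold change was 0.14 ± 0.10 for EBD5 over EBD2 (SE, adjusted p = 0.237), -0.20 ± 0.10 for EBD6 over EBD5 (adjusted p = 0.0934) and -0.06 ± 0.11 for EBD6 over EBD2 (adjusted p = 0.633). Without EBD6 replicate 1 it was lower in EBD6 than in EBD5 (log2 -0.32, adjusted p = 0.0186), and without EBD2 replicate 3 the EBD6 over EBD2 value turned to 0.07 (adjusted p = 0.644, edgeR).

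Hsp90b1 (ENSMUSG00000020048, chr10:86690209-86705509) encodes GRP94, the ER's Hsp90 chaperone, which folds integrins, Toll-like receptors and growth factors. It had 725, 716 and 883 CPM in EBD2 replicates 1 to 3, 892, 892 and 920 CPM in EBD5, and 551, 435 and 429 CPM in EBD6. The EBD6 libraries lay below those of the other groups, with no overlap. Hsp90b1 fell in EBD6, with 491 ± 84.6 CPM, against 901 ± 16.2 CPM in EBD5 (SD, n = 2 and 3, log2 -0.88 ± 0.11, adjusted p = 4.01e-05, edgeR). Against EBD2, with 802 ± 115 CPM (n = 2), the change was -0.71 ± 0.12 on the log2 scale (adjusted p = 0.000387, edgeR). Genes of like GC content and length had a median of -0.39 for EBD6 over EBD5, so that -0.49 remained beyond it. EBD5 over EBD2 did not pass (log2 0.17 ± 0.11, adjusted p = 0.192, edgeR). It passed without EBD2 replicate 3 (0.32, adjusted p = 0.0465), with no filter and with 9 separate libraries (lowest adjusted p = 0.0166, edgeR). On the opposite strand 1810014B01Rik overlaps it and held 770 counts over all libraries, against 42290 for Hsp90b1. The strand setting of the counting is not given in the sources used here. Deposited values of Hsp90b1 were whole numbers in 0 of 9 libraries, and the part of reads split between genes was not tested.

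The ratio of Hsp90b1 to Hspa5 per kb sets the ER's Hsp90 against its Hsp70 within each library. It was 2.03, 2.01 and 2.07 in EBD2 replicates 1 to 3, 2.09, 2.16 and 2.06 in EBD5, and 1.34, 1.27 and 1.27 in EBD6. The EBD6 ratios lay below the others with no overlap. Bin medians for EBD6 over EBD5 were -0.39 for Hsp90b1 and -0.13 for Hspa5, and the ratios were not adjusted for them.

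Dnajb9 (ENSMUSG00000014905, chr12:44205559-44210326) encodes ERdj4, a J-domain partner of BiP that represses IRE1. It had 41.3, 41.5 and 42.1 CPM in EBD2 replicates 1 to 3, 50.9, 49.6 and 54.6 CPM in EBD5, and 42.1, 35.9 and 37.5 CPM in EBD6. The EBD5 libraries lay above all others. Dnajb9 rose in EBD5 over EBD2 (log2 0.31 ± 0.09, adjusted p = 0.00828) and fell in EBD6 against EBD5 (-0.41 ± 0.09, adjusted p = 0.00126, edgeR). These changes were the size seen in genes of like GC content and length, whose medians were 0.36 and -0.51, and with those medians removed the signs turned (-0.05 and 0.10). EBD6 over EBD2 was -0.10 ± 0.09 (adjusted p = 0.346).

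**Figure D2:**
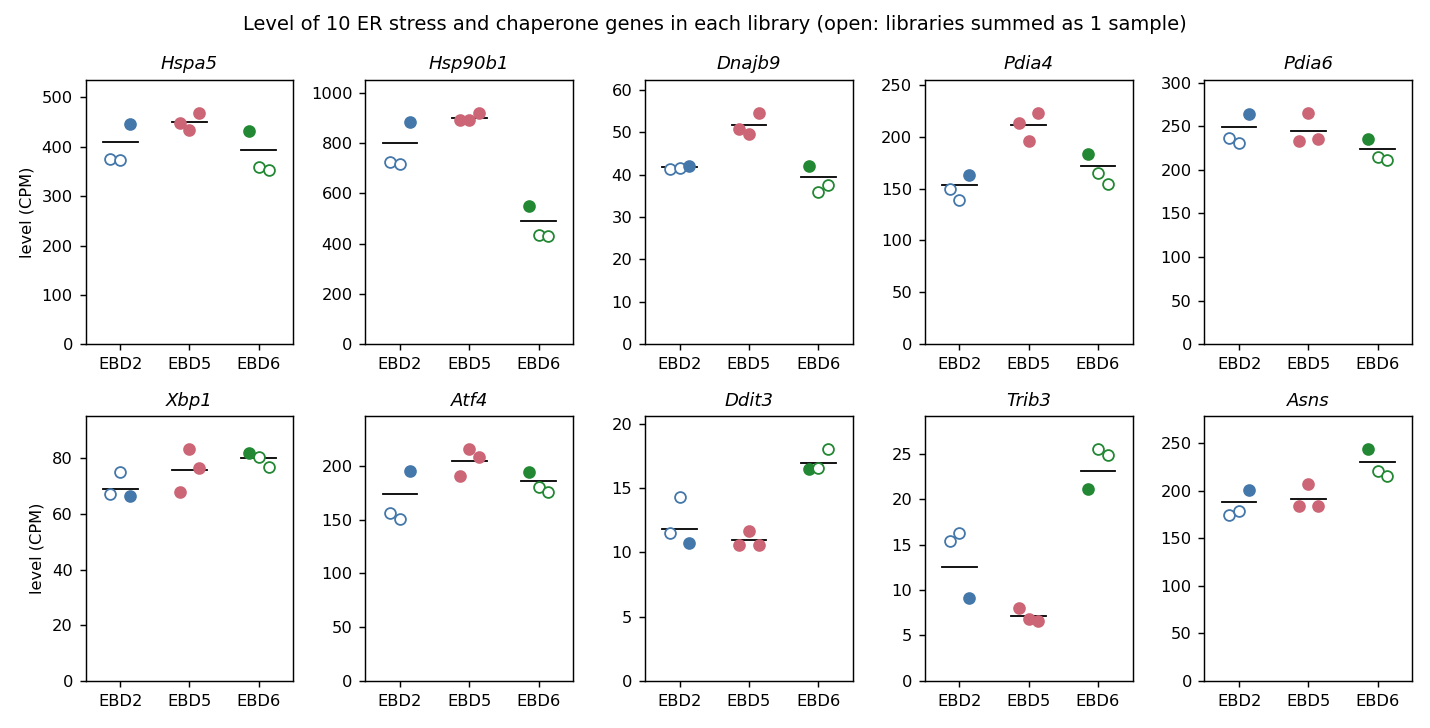
CPM of the 10 members in each library of EBD2, EBD5 and EBD6, each panel with its own axis from 0; black bars are means over samples and open points are libraries summed as 1 sample. Hsp90b1 is lowest in EBD6, Pdia4 and Dnajb9 are highest in EBD5, and Ddit3, Trib3 and Asns are highest in EBD6.

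The disulfide isomerases form and rearrange the disulfide bonds of client proteins. Pdia4 (ENSMUSG00000025823, chr6:47796141-47813430), which encodes ERp72, had 149, 139 and 164 CPM in EBD2 replicates 1 to 3, 214, 196 and 223 CPM in EBD5, and 184, 165 and 155 CPM in EBD6. The EBD5 libraries lay above all others, and those of EBD2 and EBD6 overlapped. Pdia4 rose in EBD5, with 211 ± 13.6 CPM, against 154 ± 13.7 CPM in EBD2 (SD, n = 3 and 2, log2 0.46 ± 0.09, adjusted p = 0.000582, edgeR). It fell in EBD6 against EBD5 (-0.31 ± 0.08, adjusted p = 0.00688), and EBD6 over EBD2 did not pass (0.15 ± 0.09, adjusted p = 0.161). Genes of like GC content and length had medians of 0.11 and -0.04 in the first 2 of these comparisons.

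Pdia6 (ENSMUSG00000020571, chr12:17266545-17284770) encodes P5, an isomerase that works with BiP and attenuates IRE1 signalling. It had 237, 231 and 264 CPM in EBD2 replicates 1 to 3, 233, 266 and 236 CPM in EBD5, and 236, 215 and 212 CPM in EBD6. The groups overlapped, and no comparison passed: its log2 fold change was -0.02 ± 0.08 for EBD5 over EBD2, -0.13 ± 0.08 for EBD6 over EBD5 and -0.15 ± 0.09 for EBD6 over EBD2 (adjusted p = 0.841, 0.176 and 0.157, edgeR). The first of these turned to 0.06, 0.02 and 0.01 without EBD2 replicate 3, EBD5 replicate 1 and EBD5 replicate 3. The ratio of Pdia4 to Pdia6 per kb was 0.985, 0.940 and 0.966 in EBD2 replicates 1 to 3, 1.43, 1.15 and 1.48 in EBD5, and 1.21, 1.20 and 1.14 in EBD6. The EBD2 ratios lay below those of the other groups, which overlapped.

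Of the transcription factors Xbp1 and Atf4, only Atf4 passed the test, in EBD5 over EBD2. Xbp1 (ENSMUSG00000020484, chr11:5520659-5525893), the factor activated by IRE1 splicing, had 67.3, 75.0 and 66.3 CPM in EBD2 replicates 1 to 3, 67.7, 83.1 and 76.6 CPM in EBD5, and 81.8, 80.4 and 76.7 CPM in EBD6. EBD6 lay above EBD2 without overlap, and EBD5 overlapped both. No comparison passed: the log2 fold change was 0.14 ± 0.09 for EBD5 over EBD2, 0.07 ± 0.08 for EBD6 over EBD5 and 0.21 ± 0.09 for EBD6 over EBD2 (adjusted p = 0.184, 0.455 and 0.0622, edgeR). Calls on Xbp1 lay at the threshold. EBD6 over EBD2 passed without EBD2 replicate 2, EBD5 replicate 1, EBD5 replicate 2 or EBD6 replicate 3 (log2 0.26, 0.21, 0.21 and 0.24, adjusted p = 0.0277, 0.0420, 0.0373 and 0.0365, edgeR). Without EBD5 replicate 1, EBD5 over EBD2 passed as well (0.22, adjusted p = 0.0418, edgeR) and EBD6 over EBD5 turned to -0.01.

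Atf4 (ENSMUSG00000042406, chr15:80255184-80257541) had 156, 150 and 195 CPM in EBD2 replicates 1 to 3, 191, 215 and 208 CPM in EBD5, and 194, 181 and 176 CPM in EBD6. EBD2 replicate 3 lay within the range of EBD5 and just above the highest EBD6 library, and EBD2 replicates 1 and 2 lay below both groups. Atf4 rose in EBD5, with 205 ± 12.7 CPM, against 174 ± 29.5 CPM in EBD2 (SD, n = 3 and 2, log2 0.25 ± 0.10, adjusted p = 0.0419, edgeR). That call was lost without EBD5 replicate 2 or 3 (0.22 and 0.24, adjusted p = 0.0849 and 0.0987), and the value was 0.41 without EBD2 replicate 3 (adjusted p = 0.00383, edgeR). Genes of like GC content and length had a median of -0.26 there, so that 0.51 remained beyond it. EBD6 over EBD5 was -0.14 ± 0.10 (adjusted p = 0.202) beside a bin median of 0.44, and EBD6 over EBD2 was 0.10 ± 0.10 (adjusted p = 0.410, edgeR). The last passed without EBD2 replicate 3 (0.27, adjusted p = 0.0366, edgeR).

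Ddit3 (ENSMUSG00000025408, chr10:127290774-127296288) encodes CHOP, a factor raised late in ER stress and linked to cell death. It had 11.5, 14.3 and 10.7 CPM in EBD2 replicates 1 to 3, 10.6, 11.7 and 10.5 CPM in EBD5, and 16.5, 16.6 and 18.0 CPM in EBD6, from 56 to 225 counts per library. The EBD6 libraries lay above all others. Ddit3 rose in EBD6, with 16.9 ± 0.587 CPM, against 10.9 ± 0.638 CPM in EBD5 (SD, n = 2 and 3, log2 0.64 ± 0.13, adjusted p = 0.00126, edgeR). Against EBD2, with 11.8 ± 1.57 CPM (n = 2), the rise was 0.50 ± 0.14 (adjusted p = 0.00796), and it missed the threshold without EBD2 replicate 3 (0.39, adjusted p = 0.0522, edgeR). EBD5 over EBD2 was -0.14 ± 0.14 (adjusted p = 0.411, edgeR). Bin medians for the EBD6 comparisons were -0.07 and -0.14, so the rise of Ddit3 was larger beyond them, at 0.71 and 0.64. The 3′ end of Ddit3 overlaps Mars, a tRNA synthetase gene on the other strand, by 68 bases. Mars held 9153 counts over all libraries, against 906 for Ddit3, and its own level was higher in EBD6 than in EBD5 (162 ± 2.16 against 93.8 ± 5.75 CPM). Whether the counting separated the strands there is not known, and the part of Mars in the Ddit3 values was not tested. Deposited values of Ddit3 were whole numbers in 4 of 9 libraries.

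Trib3 and Asns act downstream of ATF4 and CHOP. Trib3 (ENSMUSG00000032715, chr2:152337422-152344032) encodes a pseudokinase that CHOP and ATF4 induce and that restrains them in turn. It had 15.4, 16.3 and 9.13 CPM in EBD2 replicates 1 to 3, 8.06, 6.83 and 6.59 CPM in EBD5, and 21.1, 25.5 and 24.8 CPM in EBD6, from 35 to 310 counts per library. The groups did not overlap, although EBD2 replicate 3 lay nearer to EBD5 than to the other EBD2 libraries.

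Trib3 had the largest fold change among the members in each comparison. It fell to 7.16 ± 0.791 CPM in EBD5, against 12.5 ± 4.74 CPM in EBD2 (SD, n = 3 and 2, log2 -0.87 ± 0.23, adjusted p = 0.00534, edgeR). In EBD6, with 23.1 ± 2.86 CPM (n = 2), it was 3.28-fold higher than in EBD5 (log2 1.71 ± 0.21, adjusted p = 2.38e-05, edgeR) and 1.79-fold higher than in EBD2 (log2 0.84 ± 0.20, adjusted p = 0.00332, edgeR). Its GC content of 59.2% was the highest of the members. Genes of like GC content and length had medians of -0.77, 0.99 and 0.33 in these comparisons, so that -0.10, 0.72 and 0.51 remained beyond them.

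Asns (ENSMUSG00000029752, chr6:7675169-7693254) encodes asparagine synthetase, a classic ATF4 target of amino acid shortage. It had 175, 178 and 201 CPM in EBD2 replicates 1 to 3, 184, 207 and 184 CPM in EBD5, and 243, 220 and 216 CPM in EBD6. The EBD6 libraries lay above all others, and EBD2 and EBD5 overlapped. Asns rose in EBD6, with 231 ± 18.0 CPM, against 192 ± 13.5 CPM in EBD5 (SD, n = 2 and 3, log2 0.26 ± 0.08, adjusted p = 0.0144, edgeR). Against EBD2, with 189 ± 17.1 CPM (n = 2), it rose by 0.29 ± 0.09 (adjusted p = 0.0137, edgeR). The rise over EBD5 missed the threshold without EBD5 replicate 1, EBD5 replicate 3 or EBD6 replicate 1 (0.22, 0.22 and 0.20, adjusted p = 0.0588, 0.0624 and 0.0759), and that over EBD2 without EBD6 replicate 1 (0.24, adjusted p = 0.0525, edgeR). EBD5 over EBD2 was 0.03 ± 0.08 (adjusted p = 0.756, edgeR), and -0.02 without EBD5 replicate 2.

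The share of members called was at or below that of all tested genes in each comparison and direction. In EBD5 over EBD2, 3 members rose (Pdia4, Dnajb9 and Atf4), beside 34.9% of all tested genes, 1 fell (Trib3), beside 35.1%, and 6 did not pass. In EBD6 over EBD5, 3 rose (Trib3, Ddit3 and Asns), beside 36.9% of all tested genes, 3 fell (Hsp90b1, Dnajb9 and Pdia4), beside 33.3%, and 4 did not pass. In EBD6 over EBD2, the same 3 genes rose as in EBD6 over EBD5, beside 33.7% of all tested genes, and 1 fell (Hsp90b1), beside 32.3%. Comparisons that share a group share its libraries, so their calls are not independent.

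The members' changes were small. Their median absolute log2 fold change was 0.15, 0.28 and 0.18 for EBD5 over EBD2, EBD6 over EBD5 and EBD6 over EBD2, beside 0.58, 0.56 and 0.53 over all tested genes. Past a fold of 1.5 in either direction were 1, 3 and 2 of 10 members, beside 49.9%, 48.6% and 46.5% of all tested genes.

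**Figure D3:**
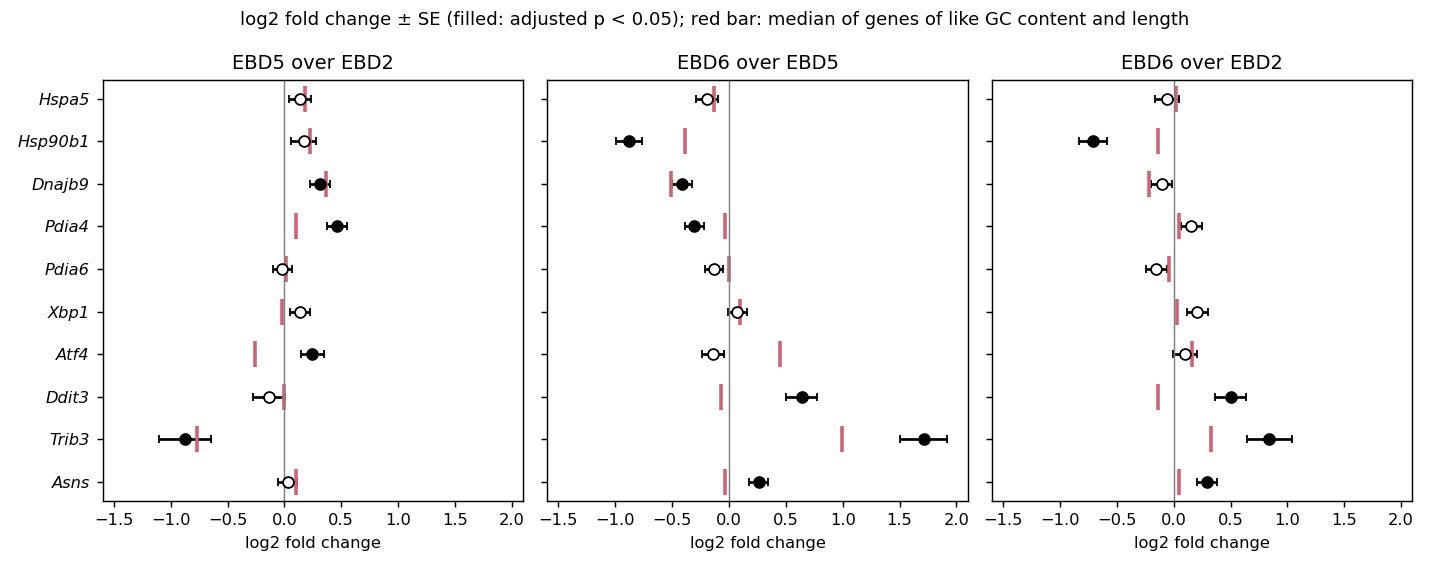
log2 fold change of each member with its SE in the 3 comparisons; filled points passed an adjusted p of 0.05 and red bars give the median of genes of like GC content and length. Dnajb9 lies near its red bar in each comparison, while Ddit3 lies beyond it by 0.71 and 0.64 for EBD6 over EBD5 and over EBD2.

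Replicates of a group differed in the members too. EBD2 replicate 3 was above the summed replicates 1 and 2 in Hspa5 (log2 difference 0.26), Hsp90b1 (0.29) and Atf4 (0.35), and below them in Trib3 (-0.76). The median absolute difference over the members was 0.22 there, beside 0.09 over tested genes at 10 CPM or more. EBD6 replicate 1 was above the summed replicates 2 and 3 in Hspa5 (0.27) and Hsp90b1 (0.35) and below them in Trib3 (-0.25), with a median of 0.18 beside 0.13. For Hspa5 these differences within a group were larger than the fold change between any 2 groups.

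Likeness was measured as the root mean square difference of centred log2 CPM over the 7 samples. Among 10830 other genes at 10 CPM or more, those nearest to Hspa5 were Cct7 (0.04) and Cct4 (0.05), which encode subunits of the cytosolic chaperonin, and Atp5h (0.05), which encodes a subunit of ATP synthase. The nearest to Ddit3 were Fam219b, Mtif3 and Smg8, each at 0.06. Among the members, Hspa5 and Atf4 (0.10) and Dnajb9 and Pdia4 (0.10) were the nearest pairs, and Hsp90b1 and Trib3 (1.09) the farthest.

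The other genes of the pathway were read from lists, whose counts and medians are descriptions. Each count stands beside the share of all tested genes called, and a count near that share is no result about its list. That share was 34.9% higher and 35.1% lower in EBD5 over EBD2. It was 36.9% and 33.3% in EBD6 over EBD5, and 33.7% and 32.3% in EBD6 over EBD2. Genes named from them as higher or lower passed edgeR's test, with the largest adjusted p at 0.000698 (P4hb in EBD6 over EBD2), and ± marks the SE of log2 fold changes and the SD of CPM (n as above). In EBD5 over EBD2, the translocon and signal peptide processing list leaned higher, with 11 of 18 higher, 1 lower and a median log2 of 0.41, beside -0.01 over all tested genes. Sec61a1, the pore of the translocon, had 238 ± 6.46 CPM in EBD5 against 110 ± 2.44 CPM in EBD2 (log2 1.12 ± 0.06, adjusted p = 5.87e-08, edgeR). Ssr3, a subunit of the translocon-associated complex, was higher by 1.30 ± 0.07 (adjusted p = 5.82e-08, edgeR) beside a bin median of 0.45. Of the sensors and signalling genes 8 of 17 were higher and 4 lower (median 0.11). Creb3l2, a transcription factor anchored in the ER membrane, was 3.58-fold higher (adjusted p = 1.35e-08), Ppp1r15b, which directs the phosphatase of eIF2 alpha, 2.13-fold (9.19e-08), and Eif2ak3, which encodes PERK, 1.45-fold (0.000145, edgeR). Atf6b, the relative of Atf6, was lower (log2 -1.51 ± 0.10, adjusted p = 2.56e-07, edgeR) beside a bin median of -0.77.

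Among the other ER folding enzymes 11 of 22 were higher in EBD5 than in EBD2 and 5 lower (median 0.18). Ero1l, the oxidase that recharges disulfide isomerases, was higher by 0.75 ± 0.07, and Dnajc10, an ER reductase, by 0.67 ± 0.06 on the log2 scale. Uggt1, the glucosyltransferase that senses misfolded glycoproteins, was lower (-0.47 ± 0.07), as was Fkbp2, a prolyl isomerase (-1.27 ± 0.17). Bin medians were 0.25 for both Ero1l and Dnajc10 and -0.71 for Fkbp2. In ER-associated degradation, which removes misfolded proteins, 7 of 18 were higher and 4 lower (median 0.00). Edem1, which hands misfolded glycoproteins to degradation, was 2.48-fold higher, whereas Os9 (-0.98 ± 0.10) and Syvn1 (-0.62 ± 0.09) were lower, beside bin medians of -0.56 and -0.50. The single lower gene of the translocon list was no longer called without EBD2 replicate 1, EBD2 replicate 3 or EBD5 replicate 3 (0 genes).

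Of the cytosolic tRNA synthetases, many of which ATF4 induces, 1 of 20 was higher in EBD5 than in EBD2 and 17 were lower (median -0.53). Cars had 75.7 ± 4.75 CPM in EBD5 against 147 ± 2.98 CPM in EBD2 (log2 -0.96 ± 0.07), Lars 121 ± 1.82 against 223 ± 7.54 (-0.88 ± 0.06) and Vars 112 ± 3.41 against 218 ± 4.66 (-0.96 ± 0.06), while Gars was higher (0.48 ± 0.08). Vars had a bin median of -0.58. Of the ATF4 pathway targets 7 of 29 were higher and 15 lower (median -0.28). The stress factors Nupr1 (-2.45 ± 0.13) and Atf5 (-1.32 ± 0.14) and the serine enzyme Shmt2 (-1.10 ± 0.06) were lower, while Atf3 (2.56 ± 0.24) and Vldlr (1.80 ± 0.13) were higher. The bin medians of Atf5 and Shmt2 were -0.71 and -0.77, which left -0.61 and -0.33. The stress-linked apoptosis regulators split, with 4 of 9 higher and 4 lower. The death receptor gene Tnfrsf10b was higher (1.19 ± 0.08) and Bbc3, which encodes PUMA, lower (-1.56 ± 0.12) beside a bin median of -0.77.

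In EBD6 over EBD5, ER-associated degradation leaned higher, with 13 of 18 higher, 1 lower and a median log2 of 0.39, beside 0.04 over all tested genes. Of all tested genes 36.9% were higher and 33.3% lower. Syvn1, the ubiquitin ligase HRD1, had 69.6 ± 4.07 CPM in EBD6 against 25.4 ± 1.20 CPM in EBD5 (log2 1.46 ± 0.08, adjusted p = 9.54e-08, edgeR), and Os9 was higher by 0.85 ± 0.10. The bin medians of these genes were 0.66 and 0.67. Vcp, the ATPase that extracts substrates, was lower (-0.39 ± 0.07), and the count of lower genes became 2 without EBD5 replicate 1 and 3 without EBD6 replicate 1, and 2 or 3 in other scalings. The other ER folding enzymes had 7 of 22 higher and 10 lower (median -0.15). Manf, a secreted partner of BiP, was lower (-0.65 ± 0.09), as were Ero1l (-0.53 ± 0.07) and Canx, the membrane lectin calnexin (-0.50 ± 0.08). Bin medians were -0.36 for Ero1l and -0.39 for Canx, which left -0.17 and -0.11. The translocon list had 3 of 18 higher and 6 lower (median -0.13), with Ssr3 lower (-0.98 ± 0.07) beside a bin median of -0.68.

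Sensors and signalling genes had 7 of 17 higher and 4 lower in EBD6 over EBD5 (median 0.02). Atf6b (1.51 ± 0.10) and Creb3 (1.38 ± 0.09), both encoding ER-anchored factors, were higher, and Eif2s1, which encodes eIF2 alpha, was lower (-1.03 ± 0.10). Bin medians were 0.99 for Atf6b, 0.30 for Creb3 and -0.36 for Eif2s1. The tRNA synthetases had 13 of 20 higher and 2 lower (median 0.40, and 1 lower without EBD5 replicate 3). Lars was higher by 0.81 ± 0.06, Mars by 0.79 ± 0.08 and Vars by 0.97 ± 0.06. Bin medians were 0.39 for Mars and 1.09 for Vars, above the change of Vars itself. The ATF4 pathway targets had 16 of 29 higher and 5 lower (median 0.33). With bin medians removed and no new test, 10 of the called genes had positive values and 11 negative ones. Atf5 (2.28 ± 0.13), Atf3 (2.26 ± 0.14) and Sesn2 (1.15 ± 0.07), which restrains the growth kinase mTORC1, were higher. Bin medians were 0.90 for Atf5 and 0.94 for Sesn2, which left 1.39 and 0.20. Of the apoptosis regulators 6 of 9 were higher and 2 lower (median 0.60). Bbc3 was 3.66-fold higher (log2 1.87, adjusted p = 1.97e-07, edgeR) beside a bin median of 0.99, and Pmaip1, which encodes NOXA, was lower (-0.95 ± 0.09) beside a bin median of -1.06.

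In EBD6 over EBD2, 33.7% of all tested genes were higher and 32.3% lower. There 11 of 18 translocon genes were higher and 2 lower (median 0.29, beside 0.01 over all tested genes), with Sec61a1 higher by 1.37 ± 0.06. The lower count became 1 without EBD2 replicate 3 or EBD6 replicate 3. ER-associated degradation had 10 of 18 higher and 3 lower (median 0.22). Herpud1, an ER stress-induced scaffold of the HRD1 ligase, had 54.5 ± 4.04 CPM in EBD6 against 24.7 ± 3.22 CPM in EBD2 (log2 1.13 ± 0.11, adjusted p = 6.60e-06, edgeR), and Edem1 was higher by 1.27 ± 0.07. Of the sensors 7 of 17 were higher and 2 lower (median 0.09), with Creb3l2 5.73-fold higher (adjusted p = 1.37e-09, edgeR). The count of lower sensors became 5 with DESeq2 size factors, 9 separate libraries or the replicate block, and 4 in the scaling without mitochondrial, ribosomal and pseudogene genes. Of the other ER folding enzymes 9 of 22 were higher and 4 lower (median 0.09), and the lower count became 1 without EBD2 replicate 3. The disulfide isomerases Txndc5 (0.51 ± 0.06) and P4hb (0.45 ± 0.08) were higher, beside bin medians of 0.19 and 0.16.

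The ATF4 pathway targets had 13 of 29 higher and 7 lower in EBD6 over EBD2 (median 0.17). Atf3, a stress-induced repressor, had 37.9 ± 4.42 CPM in EBD6 against 1.27 ± 0.310 CPM in EBD2 (log2 4.82 ± 0.20, adjusted p = 7.37e-09, edgeR). The amino acid transporter gene Slc7a5 was higher (0.71 ± 0.07, bin median 0.24) and Nupr1 lower (-2.10 ± 0.13). Of the tRNA synthetases 2 of 20 were higher and 6 lower (median -0.10), with Wars higher (0.38 ± 0.06, bin median 0.19) and Iars lower (-0.44 ± 0.07). The higher count became 1 without EBD5 replicate 3 or EBD6 replicate 1, and in both other scalings. The apoptosis regulators had 5 of 9 higher and 2 lower (median 0.31). Among the survival genes of that list Bcl2l1 was higher (1.12 ± 0.08) and Mcl1 lower (-0.86 ± 0.10).

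**Figure D4:**
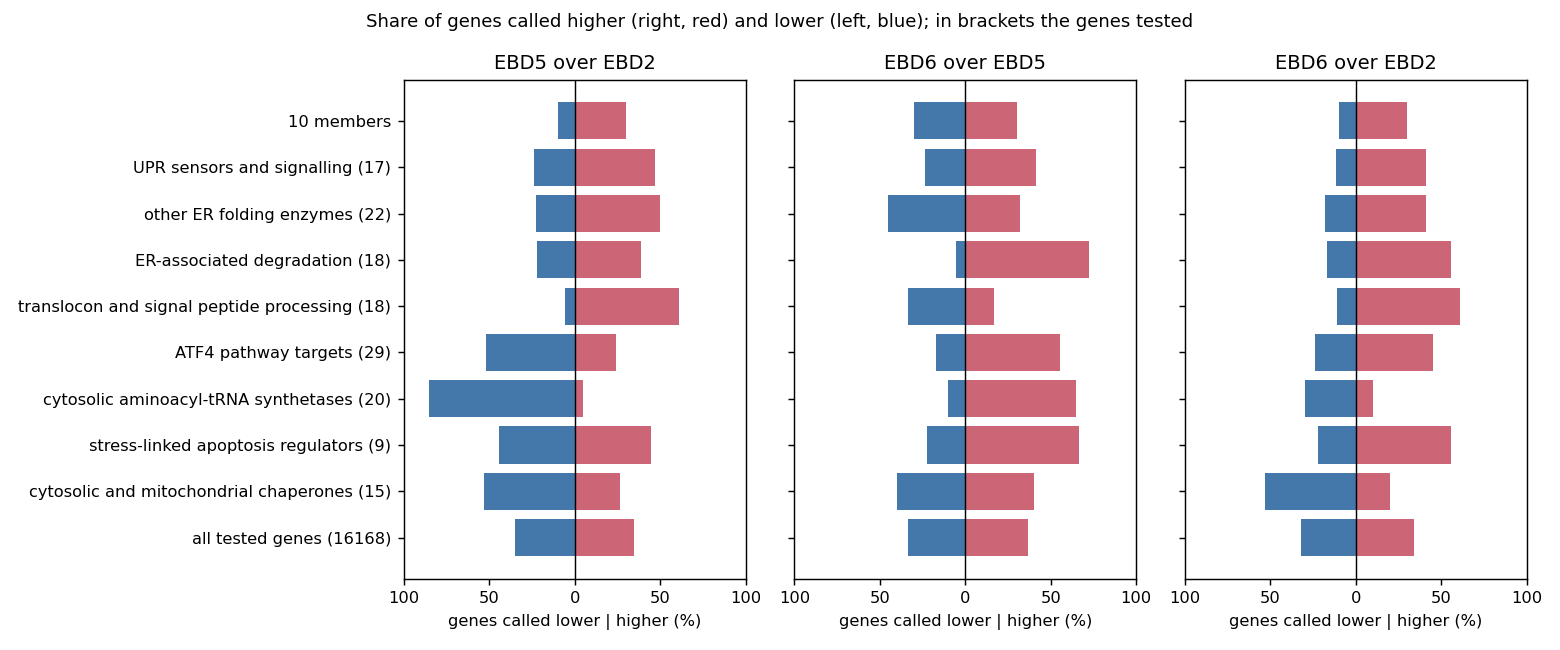
Percent of genes called higher (right) and lower (left) in the 10 members, 8 pathway lists and all tested genes, for each comparison, with the number of genes tested in brackets. Of the tRNA synthetases 17 of 20 are lower in EBD5 over EBD2 and 13 of 20 higher in EBD6 over EBD5, beside 35.1% and 36.9% of all tested genes.

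Chaperones outside the ER were set beside the members, and the shares of all tested genes given with the lists apply here too. Of 15 cytosolic and mitochondrial chaperones, 4 were higher and 8 lower in EBD5 over EBD2 (median -0.33), 6 and 6 in EBD6 over EBD5 (median -0.21), and 3 and 8 in EBD6 over EBD2 (median -0.35). Hspa8, the constitutive cytosolic Hsp70, had 1110 ± 52.5 CPM in EBD5 against 448 ± 52.4 CPM in EBD2 (log2 1.31 ± 0.10, adjusted p = 5.60e-07, edgeR). In EBD6 it had 328 ± 33.4 CPM (log2 -1.76 ± 0.10 against EBD5, adjusted p = 9.86e-08, edgeR). Hspe1, the mitochondrial co-chaperonin, was likewise higher in EBD5 than in EBD2 (1.64 ± 0.10, bin median 0.27). It was lower in EBD6 than in EBD5 (-1.73 ± 0.10, bin median -0.27). Mitochondrial Trap1 was lower in EBD5 than in EBD2 (-0.71 ± 0.07, bin median -0.26). Hsp90aa1, a cytosolic relative of Hsp90b1, was lower in EBD6 than in EBD5 (-1.58 ± 0.09) and than in EBD2 (-0.99 ± 0.10), as were Hsp90ab1 (-0.98 ± 0.12) and the mitochondrial chaperonin gene Hspd1 (-1.11 ± 0.14) against EBD2. Hspa8 and Hspe1 have many processed pseudogenes, whose share of counts was highest in EBD5, and their values are uncertain to the extent that reads were split between copies.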

How the data were processed

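Polyadenylated RNA of 9 libraries was used. The authors deposited unscaled expected counts per gene, which are RSEM-style estimates and can be fractional; a second table held the EBD6 values again. The submitters' processing notes name build mm10, DESeq2 1.38.3, edgeR 3.40.2, RSEM 1.3.30, STAR 2.7.10a and cutadapt 1.18, with no role. The annotation and strand setting of the counting were not given in the sources used here. Per the labels, HiSeq and NovaSeq machines were used with no map to libraries, so instrument and group cannot be told apart. The labels' protocols name Trizol extraction, oligo-dT capture and a KAPA kit.

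Counts were rounded, and 1 row that names no gene (at most 0.0157% of counts) was left out. Libraries of a group that agree within sampling noise over genes with at least 20 counts (chi-square per gene 0.949 and 1.01) were summed. Genes kept by filterByExpr (16168) were TMM-scaled. The quasi-likelihood F test of edgeR 4.0.16 ran in R 4.3.3, all groups in 1 fit with 4 residual degrees of freedom, with Benjamini-Hochberg adjustment over all tested genes and calls at an adjusted p under 0.05. The SE is the log2 fold change divided by the square root of F. Depth was 5454268 to 11704761 counts. Names, positions, length and GC content came from GENCODE M21 (99.9% of IDs), with 10 GC and 5 length bins. The edgeR fit alone was run on counts simulated for the summed samples. That simulation covered neither the rule for summing libraries nor the trend with GC content and length.

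The members and lists (150 pathway genes in 8 lists and 6 marker lists) were chosen with earlier results of these data known. By rule the text may name the members, up to 3 called genes per list, direction and comparison with a mean of 10 CPM or more, and the 3 genes most like Hspa5 and Ddit3. It names 46 list genes, picked with their values known. Alternatives were limma-voom (limma 3.58.1), DESeq2 1.42.0, its size factors alone, no filter, a filter of 5 CPM, 9 separate libraries, EBD5 replicates 1 and 3 as 1 sample, a block on replicate number, a fit of the compared groups alone, a fold of 1.5, scaling without mitochondrial, ribosomal and pseudogene genes, bin medians removed, and each library left out.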

Additional observations from a re-analysis of the deposited data

How the results depend on the processing

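Tested against a fold of 1.5, members were called in 0 cases higher and 0 lower in EBD5 over EBD2, 1 higher (Trib3) and 1 lower (Hsp90b1) in EBD6 over EBD5, and 0 and 0 in EBD6 over EBD2, and all genes fell to 2972 and 2634, 2844 and 2473, and 2655 and 2263. Removing bin medians involved no new test. Of the members called in EBD5 over EBD2, 2 then had negative values, Trib3 (-0.10) and Dnajb9 (-0.05). With 9 separate libraries 5 members were lower in EBD6 than in EBD5, and with no filter 5 were higher in EBD6 than in EBD2. DESeq2 ended the call on Ddit3 for EBD6 over EBD2, and counting EBD5 replicates 1 and 3 as 1 sample ended those on Atf4 (EBD5 over EBD2) and Asns (EBD6 over EBD5). Hspa5 passed for EBD6 over EBD5 under 5 alternatives, and Hsp90b1 for EBD5 over EBD2 with no filter and with 9 separate libraries. Signs turned once bin medians were removed for EBD5 over EBD2 in Hspa5 (-0.0453), Hsp90b1 (-0.0501), Dnajb9 (-0.0517) and Asns (-0.0746), for EBD6 over EBD5 in Dnajb9 (0.10), Xbp1 (-0.0214), Vars (-0.11) and Pmaip1 (0.12), and for EBD6 over EBD2 in Dnajb9 (0.11) and Atf4 (-0.0626). The sign of Pdia6 in EBD5 over EBD2 turned with 9 separate libraries (0.0235), with EBD5 replicates 1 and 3 as 1 sample (0.0131), in the scaling without mitochondrial, ribosomal and pseudogene genes (0.0145) and with the replicate block (0.0232). The cause was not tested.

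Leaving out 1 library at a time gave 2 to 4 members higher and 1 lower in EBD5 over EBD2, 2 to 3 higher and 3 to 4 lower in EBD6 over EBD5, and 2 to 4 higher and 1 lower in EBD6 over EBD2. Over all genes the counts were 5148 to 6072 and 5090 to 6039, 5403 to 6279 and 4878 to 5440, and 4901 to 5851 and 4601 to 5248. Log2 values whose sign turned ranged from -0.0759 to 0.0624 for Pdia6 and -0.0227 to 0.116 for Asns (EBD5 over EBD2), -0.0089 to 0.14 for Xbp1 (EBD6 over EBD5) and -0.178 to 0.0668 for Hspa5 (EBD6 over EBD2). List counts moved by over 1.5 times in 43 cases against a fold of 1.5 and in 38 under other settings. No pairing by replicate number was seen. Deviations of same-numbered libraries correlated at -0.08 to 0.05, and not every library correlated best with its own number. With 3 libraries in each group this cannot show that no pairing exists. The block was fitted on 9 separate libraries. With it, 3 members were higher and 1 lower in EBD5 over EBD2, 3 and 4 in EBD6 over EBD5, and 4 and 1 in EBD6 over EBD2. Hspa5 (EBD6 over EBD5) and Xbp1 (EBD6 over EBD2) passed the threshold there. Both also passed with 9 separate libraries and no block, where 5 members were lower in EBD6 than in EBD5. Depth limits Ddit3 and Trib3 most.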
